A study of Mus musculus with 4 samples.

Results

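The genes described here are 10 receptors for neuromodulators that have been linked to anxiety and stress behaviour: the dopamine receptors Drd2 and Drd5, the serotonin receptors Htr1a, Htr1b, Htr2a, Htr2c, Htr4 and Htr7, and the orexin receptors Hcrtr1 and Hcrtr2. They were taken by gene symbol, and all 10 were found among the 22328 genes of both deposited tables. The study, on choline supply and the glucocorticoid receptor gene Nr3c1, sequenced poly(A)-selected RNA from 4 mouse samples with 1 library in each group. Both hippocampus libraries came from offspring whose dams received choline chloride in the diet from embryonic day 9 until birth, at 1.1 g/kg for F1m-CON and 5 g/kg for F1m-GCS. All offspring were fed a basal diet after birth, and behaviour was tested at 2 months. The other two libraries came from HT22, an immortalised mouse hippocampal neuronal cell line, kept for 48 h in 5 µM (CON) or 70 µM (SUP) choline chloride. Strain, and whether a hippocampus library was 1 animal or a pool, are not stated in the labels.

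Dopamine, serotonin and orexin are released by small groups of neurons in the midbrain, the raphe nuclei and the lateral hypothalamus, whose axons reach the hippocampus. All 10 receptors are G protein-coupled. Drd2, Htr1a and Htr1b couple to Gi and lower cAMP, Drd5, Htr4 and Htr7 couple to Gs and raise it, and Htr2a, Htr2c, Hcrtr1 and Hcrtr2 act chiefly through Gq and phospholipase C. Htr1a is known for its high level in hippocampal pyramidal neurons, Htr2c for its high level in the choroid plexus, and Hcrtr1 for its role in arousal and stress responses.

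Reads in genes numbered 31175015 and 30265820 in the F1m-CON and F1m-GCS libraries and 18305096 and 13192007 in HT22 CON and SUP. With 1 library per group no difference below has a replicate check, and no test of the conditions was made. Values in brackets after a log2 ratio are 95% intervals of counting error only. Reads are not separate molecules, and animals or cultures add variation that these libraries do not show. Genes with 50 or more reads in either library of a comparison are termed measured. They are termed higher or lower where the ratio reached 1.5-fold and its interval did not include 0. In bulk tissue, fewer cells of a type and less RNA per cell cannot be told apart. Among the markers, the CA1, CA2 and CA3, dentate gyrus and pan-neuronal lists had no gene at 0 in both hippocampus libraries. The 14 pan-neuronal markers were also all detected in HT22. Their summed level there was 3.09% of that in hippocampus in the CON libraries and 3.79% in the treated ones. A single marker, Eno2, held 4042 of the 6401 reads of that sum in HT22 CON and 2370 of the 5639 in SUP.

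Of these receptor genes 3 met the rule for a higher or lower level, Hcrtr1 and Drd2 in the hippocampus and Htr2c in HT22 cells, and the bases upstream of their starts are shown for that reason. Capitals mark CpG dinucleotides, the sites of DNA methylation in mammals, for which choline is a source of methyl groups. The letters are from RefSeq (GRCm38.p6, the same assembly as mm10) and run 5′ to 3′ on the gene's strand. The stretches are chr9:49340153-49340402 on the plus strand for Drd2, chrX:146962263-146962512 on the plus strand for Htr2c and chr4:130139360-130139412 on the minus strand for Hcrtr1. The Hcrtr1 stretch ends where the annotated transcript of GENCODE M21 begins.
Drd2: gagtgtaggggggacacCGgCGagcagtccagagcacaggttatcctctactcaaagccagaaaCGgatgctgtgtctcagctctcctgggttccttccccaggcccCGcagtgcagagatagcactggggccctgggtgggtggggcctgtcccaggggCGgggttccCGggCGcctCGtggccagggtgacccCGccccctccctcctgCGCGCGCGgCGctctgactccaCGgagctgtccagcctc
Htr2c: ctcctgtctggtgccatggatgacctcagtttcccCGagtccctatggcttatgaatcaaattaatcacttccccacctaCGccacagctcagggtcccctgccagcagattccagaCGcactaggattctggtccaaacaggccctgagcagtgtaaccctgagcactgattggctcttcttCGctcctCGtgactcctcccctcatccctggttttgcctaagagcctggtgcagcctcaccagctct
Hcrtr1: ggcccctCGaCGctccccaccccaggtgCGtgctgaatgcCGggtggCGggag

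Of the 10 receptor genes, 9 had an entry among the RefSeq promoters, Htr4 being the exception. In the 250 bases before the start, Htr7 had 41 CpG, Drd5 35, Hcrtr1 21 at the outermost of its 3 starts, and Drd2 15. The other members had 4 to 6, near the median of 6 over the 32851 windows of the table. The full glucocorticoid response element, written as AGAACA, 3 bases of any kind and TGTTCT and searched on both strands, had no match in any of the members' windows and was found in 0.009% of all windows. Its half-site AGAACA matched in 1 member, Htr2a, and in 16.1% of all windows. No methylation or binding was measured in these libraries, so these letters are a description only.

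All 10 receptors were read in both hippocampus libraries, at levels that spanned more than an order of magnitude. On a scale of RPKM (reads per kilobase of coding length, scaled to the reads in genes), Htr2c had the highest level, 52.9 (50.7 to 55.1, exact 95% Poisson interval) in F1m-CON and 60.4 (58.0 to 62.8) in F1m-GCS. Htr1a followed at 41.6 (39.6 to 43.6) and 36.9 (35.0 to 38.9). Htr2c therefore stood 1.27 times above Htr1a in F1m-CON and 1.64 times above it in F1m-GCS. Htr4, a receptor that raises cAMP in pyramidal neurons, came next at 15.1 and 15.3. Htr7, Drd5 and Htr1b formed a group between 8.10 and 9.60 in F1m-CON and between 8.74 and 9.38 in F1m-GCS, in which neighbours did not differ beyond counting error. Htr2a was seventh in both, at 4.80 and 6.74. At the bottom of the order stood Hcrtr1 at 2.15, Hcrtr2 at 1.86 and Drd2 at 1.03 in F1m-CON. In F1m-GCS this order was Hcrtr2 at 2.08, Drd2 at 1.63 and Hcrtr1 at 0.71. The intervals of Hcrtr1 and Hcrtr2 overlapped in F1m-CON and those of Hcrtr2 and Drd2 in F1m-GCS, while Hcrtr1 lay below Drd2 in F1m-GCS without overlap.

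**Figure D1:**
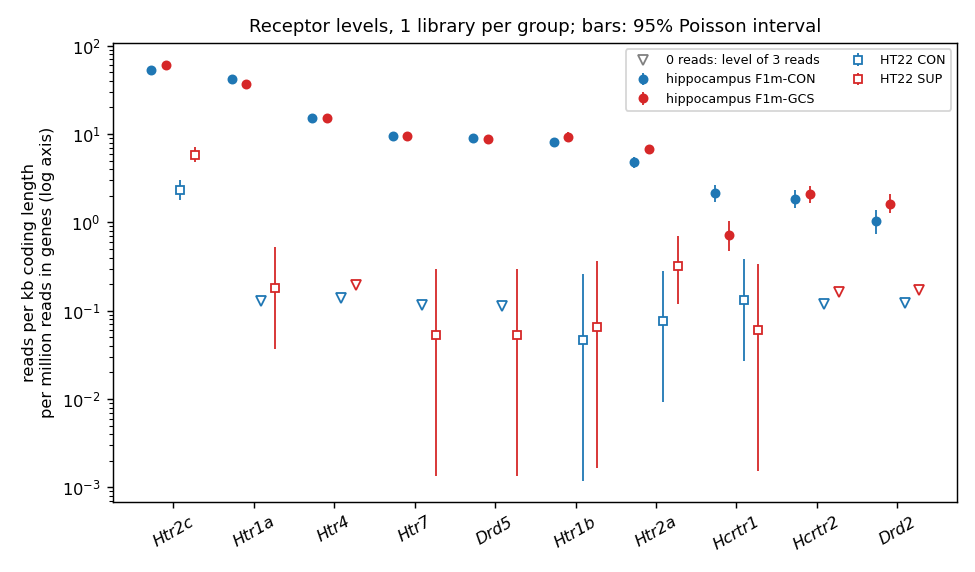
Level of each receptor gene, in RPKM over coding length and reads in genes on a log axis, in the 4 libraries. Bars are 95% Poisson intervals and triangles the level that 3 reads would give for genes with 0 reads; the hippocampus points (filled) lie above the HT22 points (open) for every gene, and Htr2c is the highest gene in all 4 libraries.

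Between the hippocampus libraries 1 of the 10 receptors was lower in F1m-GCS, 1 was higher and 8 were not called. Over all 13392 measured genes 0.904% were called lower and 1.8% higher. Past 2-fold, with no interval asked for, stood Hcrtr1 alone of the 10, on the lower side, against 0.172% of measured genes lower and 0.224% higher. The median log2 ratio of the 10, F1m-GCS over F1m-CON, was 0.10, against -0.0042 over all measured genes, with 6 above and 4 below 0. In the hippocampus libraries genes with long coding sequences and low GC had higher ratios, so each value was also computed after subtracting the median of genes of like length and GC. With it, the median of the 10 was 0.06.

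Between these 2 libraries the ratios of the orexin receptors differed from each other beyond counting error. Hcrtr1, the receptor that prefers orexin A (ENSMUSG00000028778, chromosome 4, 130130217 to 130139359, minus strand, mm10), had 84 reads in F1m-CON and 27 in F1m-GCS. Its log2 ratio was -1.52 (-2.27 to -0.94), a level 2.86-fold lower in F1m-GCS. After the correction for length and GC it was -1.49 (-2.24 to -0.92). Hcrtr2, which binds orexin A and orexin B alike (ENSMUSG00000032360, chromosome 9, 76225880 to 76323856, minus strand), had 80 and 87 reads and 0.17 (-0.28 to 0.63). The interval of Hcrtr1 did not overlap that of Hcrtr2. The sum over both orexin receptors was 164 reads in F1m-CON and 114 in F1m-GCS, and of the pair only Hcrtr1 had fewer reads in F1m-GCS. Hcrt, the gene of the orexin precursor, had 0 reads in all 4 libraries.

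Depth limits the Hcrtr1 and Drd2 values. Hcrtr1 passed the minimum of 50 reads only through F1m-CON and Drd2 only through F1m-GCS, so each had to be higher in that library. Over all genes, 173 reached 50 reads only in F1m-CON, and 66 of these were called lower. Another 123 reached 50 reads only in F1m-GCS, and 74 of these were called higher. Among the 1021 measured genes with a mean of 25 to 100 reads, 9.21% were called lower and 10.6% higher. Hcrtr1, Drd2 and Hcrtr2 are the 3 members in that range. Over all measured genes 0.0149% had a lower ratio than Hcrtr1, and the ratio of Drd2 stood at percentile 98.6. These ranks set both genes against genes of any depth, most of which did not pass the minimum in this selective way. Ranks among genes with a mean of 25 to 100 reads are not given. The rank of Drd2 therefore does not show that its ratio is unusual for its depth. So few measured genes had a lower ratio than Hcrtr1 that few of its own depth can have had one. That rank rests on 1 library per group and holds no variation between animals.

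Among the dopamine receptors, Drd2, the Gi-coupled receptor that antipsychotics block (ENSMUSG00000032259, chromosome 9, 49340662 to 49407214, plus strand), had 43 reads in F1m-CON and 66 in F1m-GCS. Its log2 ratio was 0.65 (0.10 to 1.26) and 0.68 after the correction, just past 1.5-fold, and with a prior count of 10 in place of 2 it was 0.57, under that size. Drd5, a Gs-coupled receptor with a single exon (ENSMUSG00000039358, chromosome 5, 38319509 to 38322310, plus strand), had 400 and 380 reads and -0.02 (-0.23 to 0.19). The counting interval of Drd5 is narrow around 0, while that of Drd2 runs from almost none to more than 2-fold. Neither holds variation between animals, so neither bounds the difference between the diets. Drd1a, the main Gs-coupled dopamine receptor, had 255 and 200 reads and -0.29 (-0.57 to -0.02). Drd3 and Drd4 had 3 reads or fewer in either hippocampus library.

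Markers of the striatum, where Drd2 and Drd1a are abundant, were mostly below 0 while Drd2 was above it. Of 8 measured striatal markers 7 had ratios below 0, with a median of -0.16 and a summed level of 142 CPM (counts scaled to a common total of reads in genes) in F1m-CON and 129 in F1m-GCS. Adora2a, a marker of the striatal neurons that carry Drd2, had 72 and 61 reads and -0.18 (-0.70 to 0.33). No gene of that list was at 0 in both libraries. The part of striatal cells in the Drd2 value was not tested.

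The Gq-coupled serotonin receptors were above 0, by less than 1.5-fold. Htr2a, the receptor that psychedelics activate (ENSMUSG00000034997, chromosome 14, 74640840 to 74706859, plus strand), had 212 and 289 reads and 0.50 (0.24 to 0.76). Htr2c (ENSMUSG00000041380, chromosome X, 146962513 to 147197277, plus strand) had 2275 and 2521 reads and 0.20 (0.12 to 0.28). Both intervals excluded 0, as did those of 20.9% of measured genes on the higher side and 18.8% on the lower side. Genes of their length and GC had a median of 0.10, and after the correction Htr2a had 0.39 (0.14 to 0.66) and Htr2c 0.10 (0.02 to 0.18). The 4 Gq-coupled members summed to 2651 and 2924 reads, 0.20 (0.12 to 0.27), and Htr2c made up the greater part of both sums.

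Markers of the choroid plexus, in which Htr2c is known to be high, went the other way. Of 15 measured choroid plexus markers 14 were below 0 and 3 were called lower, with a median of -0.43 and a summed level of 2015 CPM in F1m-CON and 1713 in F1m-GCS. Aqp1, a water channel, had -0.79 (-1.02 to -0.58), Steap1 -0.72 and Kcnj13 -0.71, and none of the 15 was at 0. The part of these cells in the Htr2c value was not tested.

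The Gi-coupled serotonin receptors lay on opposite sides of 0. Htr1a, the autoreceptor of raphe neurons and a postsynaptic receptor in the hippocampus (ENSMUSG00000021721, chromosome 13, 105443693 to 105448133, plus strand), had 1640 and 1414 reads and -0.16 (-0.26 to -0.06). After the correction it had -0.11 (-0.22 to -0.0099). Htr1b, a presynaptic receptor that restrains transmitter release (ENSMUSG00000049511, chromosome 9, 81628291 to 81633828, minus strand), had 293 and 329 reads and 0.22 (-0.01 to 0.45), or 0.25 (0.02 to 0.48) after the correction. The 3 Gi-coupled members summed to 1976 and 1809 reads, -0.07 (-0.17 to 0.02). Exons of antisense genes overlap those of Htr1b (D430036J16Rik) and Drd5 (Gm26560), and counting by strand is not stated in the sources used here, so reads of these partners cannot be told apart.

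The Gs-coupled serotonin receptors had ratios near 0. Htr4 (ENSMUSG00000026322, chromosome 18, 62324204 to 62467802, plus strand) had 551 and 539 reads and 0.02 (-0.15 to 0.20). Htr7 (ENSMUSG00000024798, chromosome 19, 35958734 to 36057507, minus strand) had 423 and 401 reads and -0.02 (-0.22 to 0.18). Together with Drd5 the Gs-coupled members summed to 1374 and 1320 reads, -0.0036 (-0.11 to 0.11).

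**Figure D2:**
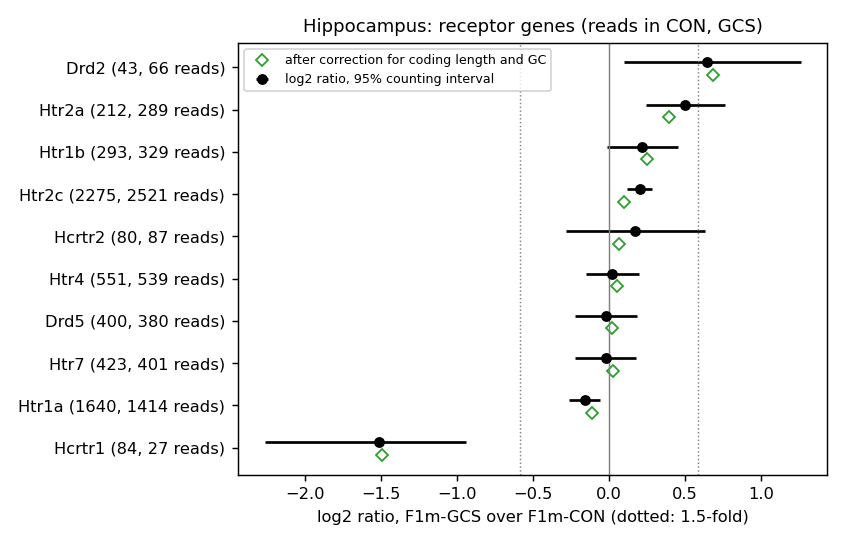
Log2 ratio of each receptor gene in hippocampus, F1m-GCS over F1m-CON, with 95% counting intervals (black) and the value after correction for coding length and GC (green). Hcrtr1 at -1.52 is the one gene far to the left, Drd2 at 0.65 is just past the dotted 1.5-fold line, and the green points of Htr2a, Htr2c and Hcrtr2 lie to the left of the black ones.

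**Figure D3:**
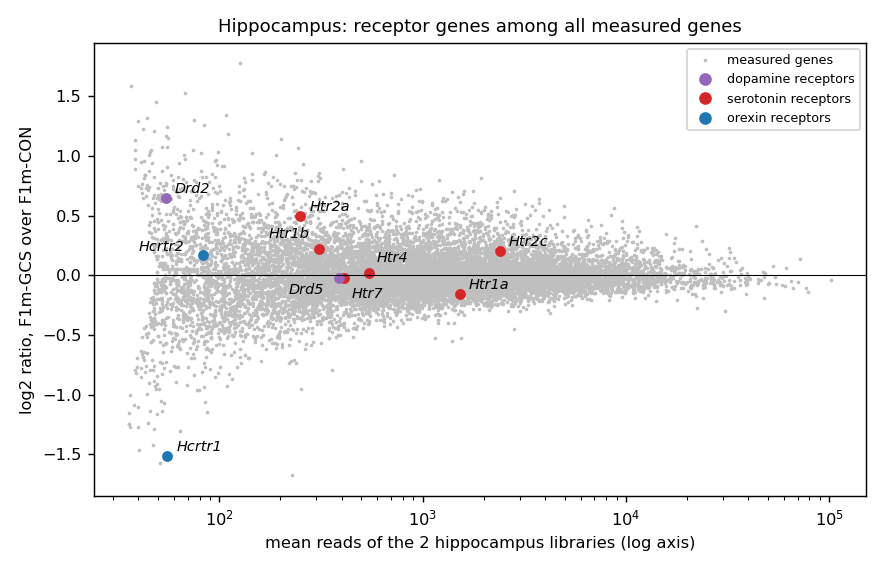
Log2 ratio, F1m-GCS over F1m-CON, against the mean reads of both hippocampus libraries (log axis) for all 13392 measured genes (grey) with the receptors in colour. The grey cloud widens to the left, where Hcrtr1 and Drd2 lie, and Hcrtr1 stands at its lower edge.

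The authors' deposited table holds 4 of the 10 receptors, Hcrtr1, Htr2c, Htr2a and Htr1a, whose p and false discovery rate were both under 0.05 in hippocampus, as were those of 14.2% of all genes listed. For HT22, 0 of the 10 passed in the authors' deposited table, against 9.55% of genes listed. There 9 of the 10 were under the minimum of reads, too few for such a test to decide, so the 0 speaks only for Htr2c. Both shares count all genes listed, whatever their reads, while all 10 receptors were read in hippocampus. They are therefore not a background of like depth. In hippocampus the log2 fold changes of the 10 in the authors' deposited table ran from -1.58 for Hcrtr1 to 0.67 for Drd2. Each column is 1 library, so these values hold no variation between animals. The deposited HT22 fold changes lay nearer a contrast other than SUP over CON, as described below.

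In HT22 cells 9 of the 10 receptors were under the minimum of 50 reads. Drd2, Htr4 and Hcrtr2 had 0 reads in both libraries, which allows up to 0.164 CPM in CON and 0.227 CPM in SUP (3 counts, counting error only). Drd5 and Htr7 had 0 reads in CON and 1 in SUP, Htr1a 0 and 3, Htr1b 1 and 1, and Hcrtr1 3 and 1. For these 8 genes no fold is given, since no library exceeded 3 reads. Htr2a had 2 and 6 reads, a log2 ratio of 1.31 (-0.41 to 5.41) that counting error alone leaves without a direction.

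Htr2c was the 1 measured receptor in HT22 cells and was higher in SUP. It had 59 reads in CON and 106 in SUP, 3.22 and 8.04 CPM, with a log2 ratio of 1.30 (0.86 to 1.81), 2.46-fold. After the correction for length and GC it was 1.48 (1.04 to 2.00). Over all 10854 measured genes 5.13% were called higher and 2.89% lower, 2.22% were higher by 2-fold as Htr2c was and 0.525% lower by 2-fold, and among 871 genes with a mean of 25 to 100 reads 25.9% were called higher and 16.8% lower. In HT22 the log2 fold change of Htr2c in the authors' deposited table is 0.48, with a false discovery rate of 0.0944. Over genes with at least 200 reads these HT22 fold changes lay a median of 0.02 from the ratio of SUP to both libraries pooled. They lay 0.07 from the ratio of SUP to CON, so 0.48 and 1.30 are not like measures. In hippocampus the deposited fold changes lay 0.01 from F1m-GCS over F1m-CON and 0.04 from F1m-GCS over both libraries pooled.

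The level of Htr2c in HT22 was a small share of that in hippocampus, and larger than the share of the other 9 receptors summed. Its CPM in hippocampus was 22.6 (17.5 to 29.8) times that in HT22 between the CON libraries and 10.4 (8.53 to 12.7) times between the treated ones. HT22 thus held 4.42% (3.35 to 5.72) and 9.65% (7.87 to 11.7) of the hippocampus level of Htr2c. The other 9 receptors together had 6 reads in HT22 CON and 13 in SUP, 0.274% (0.101 to 0.597) and 0.844% (0.449 to 1.45) of their hippocampus level. Taken singly, Hcrtr1, with 3 reads in HT22 CON, was 16.4 (5.44 to 81.3) times higher in hippocampus, an interval that holds the value of Htr2c. Htr1a, second in hippocampus, was at least 321-fold higher there than in HT22 between the CON libraries, and Htr4 at least 108-fold, Htr7 at least 82.8-fold and Drd5 at least 78.3-fold, against a floor of 3 reads in the HT22 library. Between the treated libraries, with 3 reads in HT22 SUP, the ratio of Htr1a was 205 (70.2 to 997), so the size of these folds is loosely set.

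In HT22, many genes of high level in hippocampus were higher in SUP. Among the 300 measured genes at least 20 times higher in hippocampus, 71.3% were called higher in SUP. Of these 300, 109 reached 50 reads only in SUP and so had to be higher there, and of the 180 with 50 reads in both libraries 105 were called higher and 0 lower. Among the 142 genes 10 to 20 times higher, the range that holds Htr2c at 14.9 with both libraries of each pooled, 15.5% were called higher, and of the 117 with 50 reads in both libraries, as Htr2c had, 16 were. The pooled fold holds the SUP reads, so a higher level in SUP lowers it. Between the CON libraries alone Htr2c was 22.6 times higher in hippocampus, past 20, and shares by that fold were not computed. The summed level of the pan-neuronal list was 350 CPM in CON and 427 in SUP. Its largest part in both, Eno2, had -0.29 (-0.36 to -0.21) and was not called. Of 10 measured pan-neuronal markers 7 were called higher in SUP and 1, Tubb3, lower. Of the 7, Nefl, Stmn2 and Uchl1 reached 50 reads only in SUP, and of the 7 markers with 50 reads in both libraries 4 were called higher. The choroid plexus list had 2 measured genes in HT22, both below 0, and Clic6, Prlr, Sostdc1 and Cldn2 at 0 in both libraries. Its summed levels were 387 and 316 CPM. Nearly all of these came from the 2 measured genes, Aqp1 with 3481 and 1729 reads and Steap1 with 3565 and 2378. Under the minimum, Ttr had 5 and 29 reads, 2.55 (1.63 to 4.75), and Kcnj13 had 4 and 10, 1.37 (0.01 to 3.93). Only Folr1 and F5, with 12 and 5 reads each, were below 0 there. The part of other cells or of RNA from other samples in the Htr2c value was not tested.

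**Figure D4:**
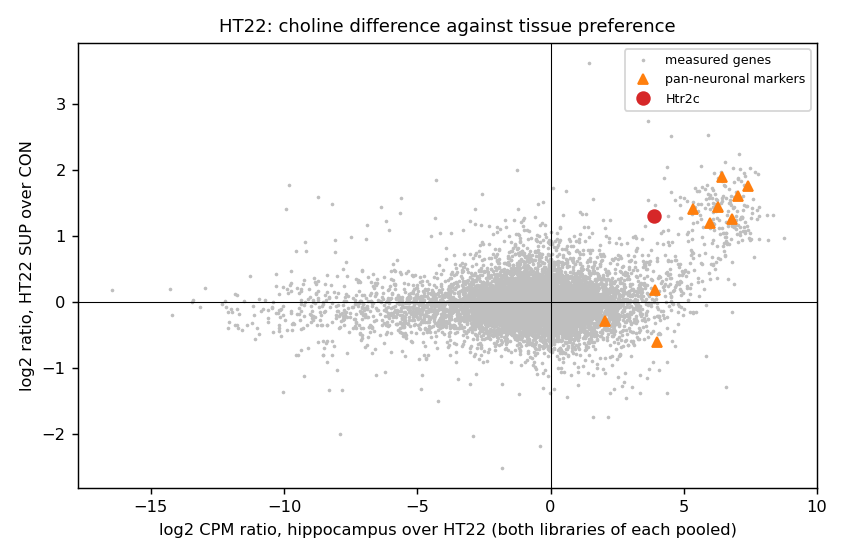
Log2 ratio in HT22, SUP over CON, against the log2 CPM ratio of hippocampus over HT22 for the 10854 measured HT22 genes (grey), with pan-neuronal markers (orange) and Htr2c (red). Genes far to the right, much higher in hippocampus, lie mostly above 0, and Htr2c lies above most genes of its position on the horizontal axis. The HT22 SUP reads enter both axes.

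The genes around the receptors were described by 8 lists, whose hippocampus counts stand beside 1.8% of all measured genes called higher and 0.904% lower. Of the other serotonin receptors 4 of 8 were measured in hippocampus and none was called, with a median of 0.0016. Htr5a, with 560 and 534 reads, and Htr3a, the ion channel among serotonin receptors, with 551 and 515, were as deeply read as Htr4, and their ratios were -0.01 (-0.19 to 0.16) and -0.04 (-0.22 to 0.13). Htr6, a Gs-coupled receptor, had 178 and 202 reads and 0.23 (-0.06 to 0.54). Adrenergic and histamine receptors had 1 of 10 measured genes higher, Hrh2, from 60 to 93 reads and 0.67 (0.20 to 1.18), and a median of 0.11.

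Genes of synthesis, transport and breakdown included 2 of 6 measured genes called lower in F1m-GCS and none called higher, with a median of -0.15. Ddc, the decarboxylase shared by dopamine and serotonin synthesis, had 324 and 203 reads and -0.62 (-0.88 to -0.36), or -0.57 after the correction, which is under 1.5-fold. Tph2, the rate-limiting enzyme of serotonin synthesis in raphe neurons, had 56 and 31 reads and -0.76 (-1.48 to -0.14), and it passed the minimum only through F1m-CON, where it is high. Slc18a2, the vesicular monoamine transporter, had 217 and 258 reads and 0.30 (0.04 to 0.57), and Maoa, which breaks down both amines, had 1591 and 1519 and -0.01. The serotonin transporter gene Slc6a4 had 0 reads in F1m-CON and 2 in F1m-GCS.

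Downstream of the receptors no gene was called in hippocampus, where few genes were called at all, 1.8% of measured genes higher and 0.904% lower. The counts were 0 of 17 measured G protein subunits, 0 of 27 cAMP and phosphoinositide effectors, 0 of 18 kinases, arrestins, RGS proteins and partners, and 0 of 6 inward rectifier and HCN channels, with medians from -0.02 to 0.08. Plcb1, a phospholipase C that Gq activates, had 0.29 (0.25 to 0.34) and 0.12 after the correction. Creb1, a transcription factor activated by cAMP signalling, had 0.33 (0.23 to 0.43) and 0.25 after it. Kcnj6, a potassium channel subunit opened by Gi-coupled receptors, had 0.22 (0.11 to 0.33) and 0.23.

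In HT22 cells 7 of 48 measured genes of these lists were called higher in SUP and 0 lower. Over all measured genes in HT22, 5.13% were called higher and 2.89% lower. Of the 7, Gng3, Plcb1 and Rgs4 reached 50 reads only in SUP, where they had to be higher. Of the 44 list genes with 50 reads in both libraries 4 were called higher and 0 lower. Over all 10404 such genes 411 were called higher and 185 lower. The 7 are the G protein subunits Gng3 at 1.58 (1.09 to 2.19) and Gnao1 at 0.61 (0.48 to 0.74), the protein kinase A subunit Prkar1b at 1.71 (1.37 to 2.11), Plcb1 at 1.58 (1.05 to 2.26), the adenylate cyclase Adcy3 at 0.78 (0.26 to 1.36), the inositol trisphosphate receptor Itpr1 at 0.76 and Rgs4, a regulator of Gi and Gq signalling, at 1.12 (0.58 to 1.75). Maoa had 4012 and 2681 reads in HT22 and -0.10 (-0.17 to -0.03). Hcrt, Th, Dbh, Slc6a3 and Tph1 had 0 reads in both HT22 libraries.

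**Figure D5:**
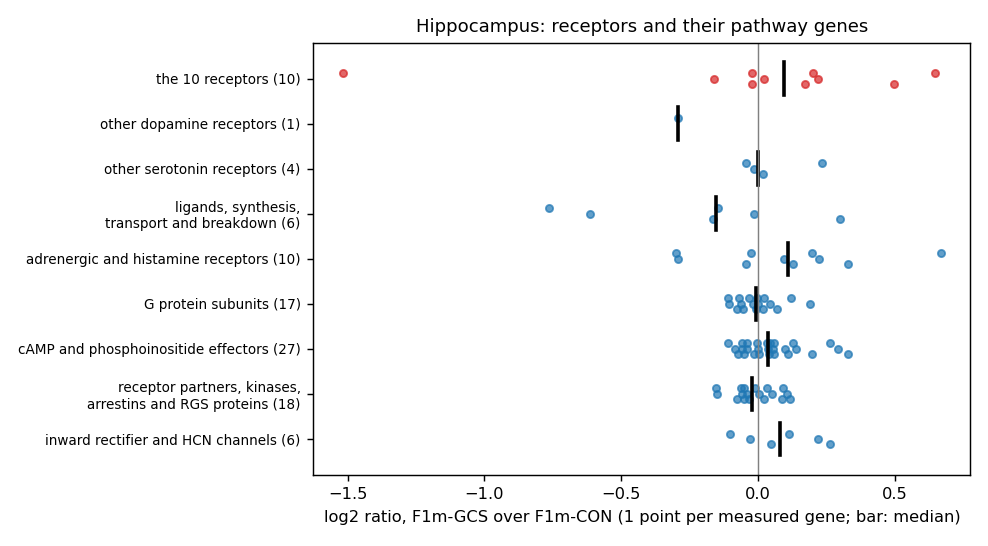
Log2 ratio in hippocampus, F1m-GCS over F1m-CON, of the 10 receptors (red) and of the measured genes of 8 lists (blue, number measured in brackets), with the median of each as a black bar. The 10 receptors spread from -1.52 to 0.65, while the G protein, effector and partner lists stay close to 0.

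The genes most like each receptor were sought by distance in log2 CPM over the 4 libraries, among 13414 genes with at least 50 reads in 1 library, leaving out Gm and Rik gene models. Drd5 and Htr7 were each among the 3 nearest genes of the other, at a distance of 0.11. The nearest gene of Htr2c was Fat3, an atypical cadherin, at 0.29, with 2136, 2505, 60 and 128 reads in F1m-CON, F1m-GCS, HT22 CON and HT22 SUP. For Hcrtr1 no gene was closer than Mx2, an interferon-induced gene, at 0.74, with 61, 33, 5 and 1 reads, followed by Gpr151, a receptor of habenula neurons, at 0.91, with 64, 27, 1 and 1. The nearest gene of each of the other 9 receptors lay between 0.04 and 0.30. These are descriptions over 4 libraries, with no test.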

How the data were processed

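Per the series' design text, adapters were removed with Trim Galore, reads went to mm10 with TopHat2 (up to 2 mismatches, mapping quality at least 4), and HTSeq counted read pairs per gene. CASAVA 1.8 is named without a role, per the submitters' processing notes, and other versions were not stated. Per the file headers, the authors deposited raw counts for each gene and library. Deposited RPKM values follow from these counts, coding length and uniquely mapped reads. The authors also deposited edgeR's log2 fold change, p-value and false discovery rate for each comparison. Lengths are coding lengths, since 99.8% of those of protein-coding genes are multiples of 3. The 13 mitochondrial genes have 0 reads.

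From the counts, log2 ratios were computed with TMM library sizes (edgeR 4.0.16, R 4.3.3) and a prior count of 2, scaled to each library. Intervals are exact conditional (Clopper-Pearson) 95% intervals of 2 counts, and those of levels are exact Poisson, both in scipy 1.17.1. The functions were tested on simulated counts. Genes were split into 10 groups by length and 5 by GC, and the correction takes off each group's median ratio, with GC from the longest coding transcript in GENCODE M21. Promoters are 250 bases before the RefSeq start. Pde4d has more than 1 entry in the tables, and each was counted.

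The members and lists were chosen with earlier results of these data known. Named genes are the members, up to 3 measured genes per list with ratios farthest from 0, and the 3 nearest genes by distance. Alternatives were scaling by total counts or by DESeq2 1.42.0, a prior count of 0.25 or 10, a minimum of 10 or 200 reads, a 2-fold rule and the correction. Genes named outside the rule, among them Hcrt, Drd3, Drd4, Htr5a, Slc6a4, Maoa, Adora2a, Itpr1, Tubb3 and Th, were chosen after their values were seen. So were Eno2, Ttr, Folr1 and F5. Some genes of the lists, although counted in them, are not reported here by name or value.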

Additional observations from a re-analysis of the deposited data

How the results depend on the processing

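No paired analysis was possible because each group held 1 library. Total counts, DESeq2 size factors and a prior count of 0.25 changed no count of called receptors or list genes. With a prior count of 10, 0 receptors were called higher in hippocampus, Drd2 being the 1 lost. With at least 200 reads, 0 receptors were called higher and 0 lower in hippocampus, where 7 were measured, and 0 were called higher in HT22, where 0 were measured. Under the 2-fold rule 0 receptors were higher in hippocampus and Hcrtr1 was the 1 lower. For the 8 lists in hippocampus, 1 gene was higher and 2 were lower. These counts were 3 and 4 with at least 10 reads, 0 and 1 with at least 200, and 0 and 0 under the 2-fold rule, and the correction for length and GC left 1 lower. For the lists in HT22, with 7 higher and 0 lower, the counts were 20 and 2 with at least 10 reads, 3 higher with at least 200 and 4 higher under the 2-fold rule. Across scalings, prior counts and the correction, the ratio of Hcrtr1 ran from -1.57 to -1.30, of Drd2 from 0.57 to 0.68, of Htr2a from 0.39 to 0.50, and of Htr2c from 0.10 to 0.20 in hippocampus and from 1.18 to 1.48 in HT22. Those of Drd5 and Htr7, whose intervals hold 0, took both signs. The level order of the 10 was the same with the authors' RPKM in all 4 libraries. Depth limits Hcrtr1, Drd2 and Hcrtr2 in hippocampus, each under 100 reads in both libraries, and in HT22 all 10 receptors.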

Other observations

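Of the markers of thalamus and habenula, 1 was called lower in F1m-GCS. Gpr151 had 64 reads in F1m-CON and 27 in F1m-GCS and a log2 ratio of -1.13 (-1.90 to -0.52), a pair of counts close to that of Hcrtr1, and it too passed the minimum only through F1m-CON. Of the 10 measured genes of the list, 7 were above 0 and 3 below, with a median of 0.12. Those above 0 included Rora at 0.42 (0.30 to 0.55) and Slc17a6, a vesicular glutamate transporter, at 0.39 (0.24 to 0.54). Below 0 besides Gpr151 were Lef1 at -0.32 (-0.65 to -0.0028) and Nrgn at -0.01.

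Among serotonin receptors under the minimum of reads, chosen after their values were seen, Htr1d had 3 reads in F1m-CON and 11 in F1m-GCS, 1.42 (0.0082 to 4.41). Htr2b had 12 reads in HT22 CON and 20 in HT22 SUP, 1.08 (0.12 to 2.39), and 1 and 2 reads in the hippocampus libraries.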
